A study of Mus musculus with 8 samples.

Results

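The cadherin superfamily, the catenins and the genes of the desmosome make the adhesive junctions that hold cells together, and their RNA was examined in the outflow tract (OFT) of the mouse embryo, the vessel that connects the early ventricles to the aortic arch arteries. The rule that picks the members reads gene symbols and no measured value, and takes the classical and other numbered cadherins, the protocadherins, *Fat1* to *Fat4*, the Dachsous and Celsr genes, the alpha, beta and delta catenins, *Jup*, the plakophilins, *Dsp*, *Dsg2* and *Dsc2*. Of the 14608 genes listed, 77 were members. The annotation of the mouse genome (GRCm38) holds 115 genes whose symbols fit the rule, and the other 38, among them *Cdh1* (E-cadherin), *Celsr3*, *Fat2*, *Pkp1* and *Pkp3*, were not analysed here. The table held genes that the authors counted at 1 CPM or more in at least 3 libraries, and each member reached 1 CPM in at least 5. The libraries were made from polyadenylated RNA of OFT at embryonic day 11.5 and fall into 4 labelled control and 4 labelled Mib1V943F/+ Gata6STOP/+. The mutant-labelled embryos carry a missense allele of *Mib1*, the ubiquitin ligase that activates NOTCH ligands, and a stop allele of *Gata6*, a zinc finger transcription factor of the heart. Both alleles were present in 1 copy, the labels name no Cre driver, and none of these 8 libraries carries 1 of the alleles without the other by its label. Each library pooled several embryos, 3 by the labels and another number by the study's methods, which also give another number of pools per genotype, so the number of embryos behind a library is uncertain and differences between single embryos cannot be seen. The labels call the controls Control and, in the sample titles, WT, and give no further genotype for them.

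Cadherins are calcium-dependent adhesion proteins. Classical cadherins bind their like on the next cell and, inside the cell, hold beta-catenin and p120-catenin, and alpha-catenin ties that complex to actin. Desmosomal cadherins bind plakoglobin, plakophilins and desmoplakin, which anchor intermediate filaments, and in heart muscle both kinds of junction merge in the intercalated disc. In the OFT, endocardial cells lose their junctions and enter the cushions as mesenchyme, the myocardial wall keeps N-cadherin, and cushion mesenchyme and neural crest carry cadherins of the type II class. Protocadherins, Fat, Dachsous and Celsr proteins are larger relatives that act in cell recognition, tissue growth and the polarity of cells within a sheet.

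The 14608 genes took 28212669, 10669420, 24833953 and 25963535 reads in the controls (replicates 1 to 4) and 21064242, 27194966, 30469165 and 26142501 in the mutant-labelled replicates 1 to 4. Values are CPM (reads per 1000000 on listed genes, after scaling), in which 1 read was worth 0.0948 CPM in control replicate 2 and 0.0325 to 0.0467 CPM in the others. Mutant-labelled replicate 2 stood apart. Over the 11651 genes whose mean reached 5 CPM, the SD of its log2 difference from the mean of the other mutant-labelled libraries was 0.296, against 0.161 to 0.216 for the other 3 and 0.184 to 0.255 for the controls. Over the 51 members that reached this mean, the SD was 0.312, against 0.170 to 0.263 in the other libraries. Where the call of a named gene ended without this library, that is said with the value. The chi-square per gene between replicates was 30.8 to 33.7 for pairs with this library, 9.38 to 12.4 for the other mutant-labelled pairs and 6.67 to 18.5 for the controls, where sampling noise alone would give a value near 1. Nothing in the labels says that the pools were collected apart, so p-values measure the spread between these libraries, which may be technical in part.

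*Mib1* measured 138, 107, 109.9 and 132 CPM in the controls (replicates 1 to 4) and 123, 137, 123 and 126 CPM in the mutant-labelled replicates 1 to 4. *Gata6* measured 236, 279, 271 and 261 CPM in the controls and 213, 284, 276 and 224 CPM in the mutant-labelled libraries. The groups overlapped for both genes (exact permutation p = 0.486 for *Mib1* and 0.543 for *Gata6*), so RNA levels of the mutated genes did not check the labels. The tissue markers were read for presence only, which other parts of the embryonic heart could also show, so they do not single out OFT. The 13 cardiomyocyte genes, the 10 genes of cushion and outflow mesenchyme, the 11 endothelial genes and the 6 smooth muscle genes were all listed, with *Myh7*, *Vcan*, *Tek* and *Acta2* the most abundant of each. Of 10 genes of pharyngeal and other epithelium, *Krt8* and *Krt18* were listed, while *Epcam*, *Cldn6*, *Cldn7*, *Esrp1*, *Foxa2*, *Nkx2-1*, *Pax9* and *Trp63* were not analysed here.

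Levels of different genes were set side by side as CPM per kb of annotated exon. On this scale beta-catenin (*Ctnnb1*) was the most abundant member, at 187 ± 4.4 CPM per kb in the controls (SD, n = 4) and 192 ± 4.31 in the mutant-labelled group (SD, n = 4). Desmoplakin (*Dsp*) followed in the controls at 78.5 ± 6.9 CPM per kb, then alpha-E-catenin (*Ctnna1*) at 72.4 ± 2.69, N-cadherin (*Cdh2*) at 60.5 ± 3.51 and p120-catenin (*Ctnnd1*) at 54 ± 3.62. The SDs of *Dsp* and *Ctnna1* overlapped, as did those of *Cdh2* and *Ctnnd1*. In the mutant-labelled libraries *Ctnna1* stood above *Dsp*, at 70.6 ± 1.63 and 66.5 ± 3.9 CPM per kb, again with overlapping SDs. VE-cadherin (*Cdh5*) measured 44.4 ± 4.84 CPM per kb in the controls, P-cadherin (*Cdh3*) 39.6 ± 3.63, plakoglobin (*Jup*) 30.5 ± 3.06 and *Cdh11* 28.2 ± 2.32. The core of both junction types was thus measured from many reads, and the low end of the family was not. In the plot of per-length levels most members lie near the diagonal. Among those off it at its lower end are *Cdh16*, *Cdh20* and *Ctnna2*, and with fewer reads *Pcdhb4*, *Pcdhb16*, *Pcdhb20* and *Pcdhb21*. Further up, *Pcdh18*, at 12.4 and 17.4 CPM per kb, and *Cdh11*, at 28.2 and 34.6, lie above it.

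**Figure D1:**
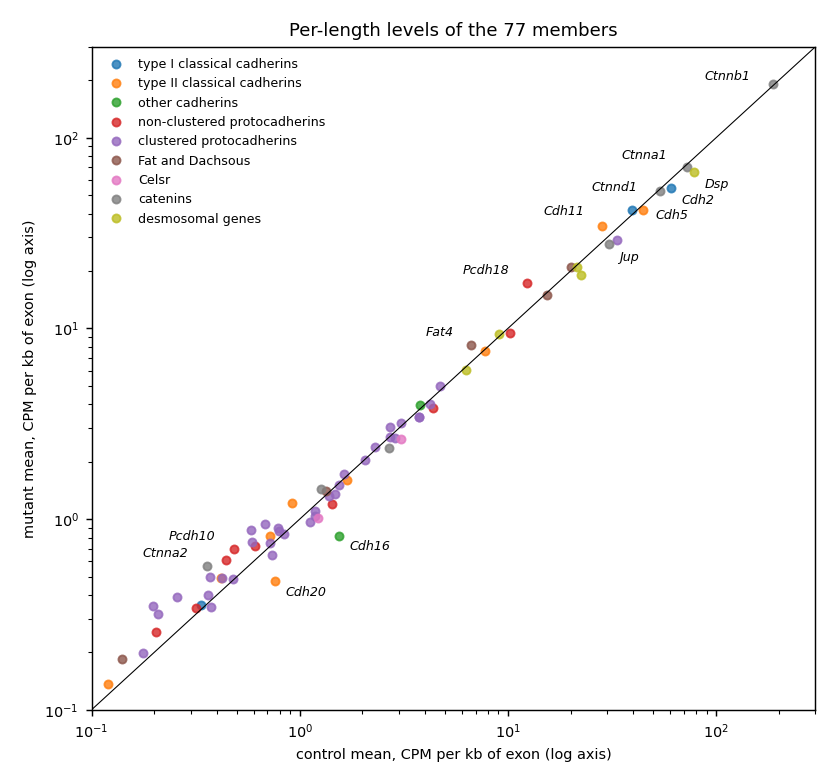
Mean level of each of the 77 members in the 4 control libraries (horizontal) and the 4 mutant-labelled libraries (vertical), in CPM per kb of exon on log axes, coloured by role; the line marks equal levels. *Ctnnb1* is highest, at 187 and 192 CPM per kb, and *Cdh16* and *Cdh20* lie furthest below the line among the named genes.

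Between the genotypes, differences within the family were small and went both ways. Type II cadherin *Cdh11*, protocadherins *Pcdh10* and *Pcdh18* and the giant cadherin *Fat4* were higher in the mutant-labelled libraries, by 1.23 to 1.44 times in mean CPM. N-cadherin, desmoplakin, plakophilin 2 and both Celsr genes were lower, at 0.831 to 0.905 times the control mean, and the low-abundance *Cdh16* and *Cdh20* at 0.532 and 0.624 times. The neural members *Ctnna2* and *Cdh19*, also of low abundance, were at 1.57 and 1.34 times. After Benjamini-Hochberg adjustment over all genes, 0 of 77 members and 0 of 14608 genes (0.0%) passed 0.05 in limma, where the smallest adjusted p of any gene was 0.124, that of *Cdh16*. At an unadjusted p under 0.05 limma counted 6 members as higher (7.79% of 77, against 5.45% of all genes) and 7 as lower (9.09%, against 6.62% of all genes). These shares lie near the background. The shares of all genes, 5.45% higher and 6.62% lower, stand beside each count of a subgroup or list in this fit. In 3 members all mutant-labelled libraries lay above all controls (3.2% of all genes did), and in 4 all lay below (3.9% of all genes did). The median log2 fold change was 0.02 over the members and 0.00 over all genes, and among the 51 members whose mean reached 5 CPM it was -0.04. Fold changes are differences of log2(CPM + 0.5), mutant-labelled minus control, a scale that understates changes at low levels.

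Count models on the recovered whole reads gave other totals. The likelihood ratio test of edgeR, without a quasi-likelihood step, passed 81 genes as lower (0.554%) and 26 as higher (0.178%) at an adjusted p under 0.05, and among them was 1 member, *Cdh16*, as lower. DESeq2 passed 194 genes in either direction (1.33%), of which 3 were members, namely *Cdh16*, *Pcdh10* and *Pcdh18*. The quasi-likelihood test of edgeR passed 0 genes, and at an unadjusted p under 0.05 it counted 11 members (14.3% of 77, against 11.7% of all genes). After the trend with GC content was removed from each library, a step chosen after seeing the data, limma counted 7 members as higher (4.69% of all genes) and 5 as lower (6.45% of all genes) at an unadjusted p under 0.05. The count of higher members moved by over 1.5 times when some libraries were left out. It was 13 without mutant-labelled replicate 1 (5.8% of all genes in the same fit), of which 5 were beta protocadherins, and 3 without control replicate 2 (3.08% of all genes).

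**Figure D2:**
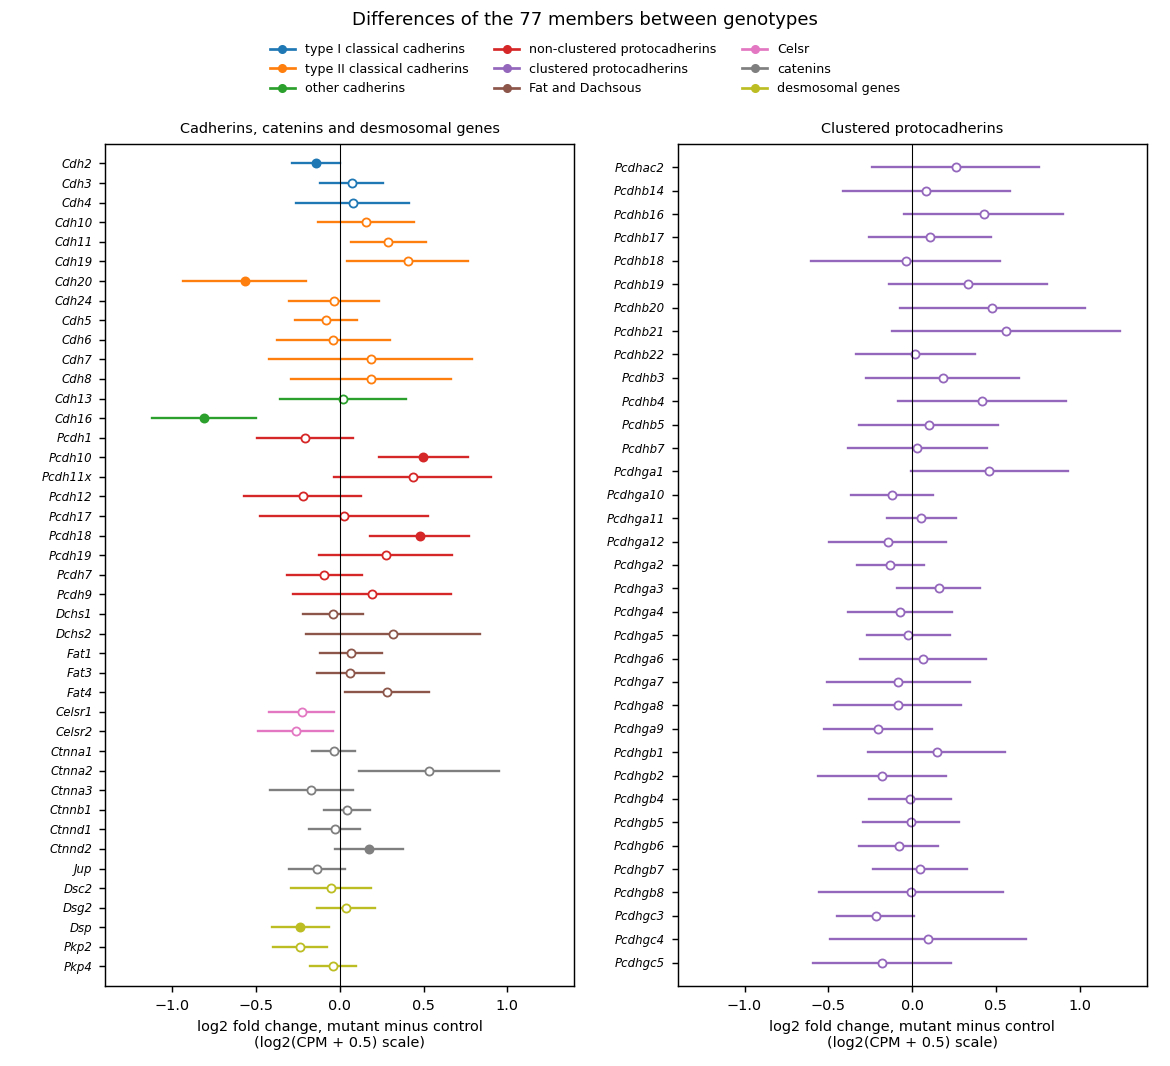
Log2 fold change of each member between mutant-labelled and control libraries, with the 95% confidence interval of limma, on the log2(CPM + 0.5) scale; filled points mark the 7 members whose groups did not overlap. Most of the 77 intervals cross 0, *Cdh16* lies lowest at -0.81, and the clustered protocadherins hold no filled point.

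Of the 7 members whose groups did not overlap, the starts of *Pcdh10*, *Pcdh18*, *Dsp* and *Cdh20* are shown from RefSeq (GRCm38.p6), which had an entry for 25 of the 77 members. Each window runs from 250 bases before to 50 after the start of transcription, 300 bases in all, and so covers the proximal promoter and the start of the first exon. They are given because *Pcdh10* and *Pcdh18* were higher, and *Dsp* and *Cdh20* lower, in every mutant-labelled library than in every control. *Pcdh10* is at chr3:45378148-45378447 on the plus strand, *Pcdh18* at chr3:49757267-49757566 on the minus strand, *Dsp* at chr13:38151044-38151343 on the plus strand and *Cdh20* at chr1:104768270-104768569 on the plus strand. Capitals mark the letters searched for on both strands, which were AGATAA and TGATAA (bound by GATA factors), TGGGAA (bound by RBPJ, the DNA-binding partner of NOTCH) and CAGGTG (an E-box bound by the Snail and Zeb repressors of cadherin genes).
Pcdh10: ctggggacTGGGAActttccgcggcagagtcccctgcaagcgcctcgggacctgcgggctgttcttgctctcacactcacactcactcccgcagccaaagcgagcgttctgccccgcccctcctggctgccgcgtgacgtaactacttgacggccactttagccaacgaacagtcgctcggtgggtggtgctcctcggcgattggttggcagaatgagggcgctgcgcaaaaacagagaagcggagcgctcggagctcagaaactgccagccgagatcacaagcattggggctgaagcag
Pcdh18: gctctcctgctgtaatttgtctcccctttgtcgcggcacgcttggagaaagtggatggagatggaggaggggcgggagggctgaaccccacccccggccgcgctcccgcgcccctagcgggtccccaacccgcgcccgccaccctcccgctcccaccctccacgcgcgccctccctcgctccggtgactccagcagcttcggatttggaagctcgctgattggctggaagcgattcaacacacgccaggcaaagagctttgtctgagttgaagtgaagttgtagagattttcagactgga
Dsp: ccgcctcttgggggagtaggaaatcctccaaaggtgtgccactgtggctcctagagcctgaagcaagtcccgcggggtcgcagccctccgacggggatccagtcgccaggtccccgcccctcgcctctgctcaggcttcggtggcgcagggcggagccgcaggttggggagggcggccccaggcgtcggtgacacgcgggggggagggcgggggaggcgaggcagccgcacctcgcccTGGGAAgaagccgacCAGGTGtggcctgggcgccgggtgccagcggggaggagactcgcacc
Cdh20: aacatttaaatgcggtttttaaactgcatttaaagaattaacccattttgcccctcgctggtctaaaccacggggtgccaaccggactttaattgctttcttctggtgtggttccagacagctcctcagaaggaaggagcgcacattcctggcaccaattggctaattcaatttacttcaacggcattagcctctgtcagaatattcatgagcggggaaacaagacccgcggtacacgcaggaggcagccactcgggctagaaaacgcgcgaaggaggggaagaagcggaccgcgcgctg
The letters TGGGAA occurred 1 time in the *Pcdh10* window, 242 bases before the start, and 1 time in the *Dsp* window, 12 bases before it. CAGGTG occurred 1 time, in the *Dsp* window, 3 bases past the first transcribed base. AGATAA and TGATAA occurred 0 times in the 4 windows. Of all 32851 promoter windows in the table, 25.6% held TGGGAA, 20.2% CAGGTG, 11.2% AGATAA and 9.05% TGATAA, and no marked matches overlapped. A match is a description of these letters and not evidence of binding. The windows were rich in G and C, at 73.0% for *Dsp*, 63.0% for *Pcdh18* and 62.3% for *Pcdh10*, against a median of 52.7% over all windows, while *Cdh20* was at 50.7%. They held 27, 23, 24 and 18 CpG dinucleotides for *Dsp*, *Pcdh18*, *Pcdh10* and *Cdh20*, against a median of 7.

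The 3 listed members of the type I class were *Cdh2*, *Cdh3* and *Cdh4*. *Cdh2*, N-cadherin of myocardium and mesenchyme, measured 522, 469, 462 and 501 CPM in the controls (replicates 1 to 4) and 419, 447, 445 and 457 CPM in the mutant-labelled replicates 1 to 4. Every mutant-labelled library lay below every control, by a narrow margin between 457 and 462 CPM. The log2 fold change was -0.14 ± 0.0652 (SE), with an adjusted p of 0.413 in limma and an exact permutation p of 0.0286, the smallest that 4 against 4 can give. The unadjusted call in limma was lost without control replicate 1 (-0.11) or 4 (-0.13) or mutant-labelled replicate 1 (-0.12), 3 (-0.15) or 4 (-0.16), with the replicate block (-0.14), and in both edgeR tests (-0.14). In bulk tissue, fewer cells of a type and less RNA per cell cannot be told apart. *Cdh2* lies 5.5 Mb from *Gata6* on chromosome 18, so a difference linked to the alleles and one linked to the chromosome around them cannot be told apart. *Cdh3*, P-cadherin, measured 173 ± 15.9 CPM in the controls and 182 ± 18.1 CPM in the mutant-labelled group (SD, n = 4 each), and *Cdh4*, R-cadherin, 2.42 ± 0.388 and 2.57 ± 0.181 CPM. Neither differed beyond the spread of its replicates (exact permutation p = 0.486 for each).

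Of 9 type II cadherins listed, limma counted 2 as higher and 1 as lower at an unadjusted p under 0.05 (5.45% and 6.62% of all genes). *Cdh11*, the cadherin of mesenchyme and of remodelling valve cells, measured 261, 221, 267 and 255 CPM in the controls and 265, 377, 296 and 296 CPM in the mutant-labelled libraries. Mutant-labelled replicate 2 was the highest by far, and replicate 1 lay among the controls. Its log2 fold change was 0.29 ± 0.102 (SE) (adjusted p = 0.331 in limma, exact permutation p = 0.0571), and without mutant-labelled replicate 2 it was 0.19. Its unadjusted call was lost without control replicate 2, where the fold change was 0.23. *Cdh5*, VE-cadherin of endothelium and endocardium, measured 204, 198, 186 and 158 CPM in the controls and 184, 159.9, 175 and 183 CPM in the mutant-labelled libraries. These values overlapped, with a log2 fold change of -0.08 ± 0.085 (SE) and an exact permutation p of 0.429.

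*Cdh20*, a type II cadherin of low level here, measured 3.71, 2.84, 2.74 and 2.85 CPM in the controls and 1.82, 1.73, 1.59 and 2.44 CPM in the mutant-labelled libraries. The 4 mutant-labelled libraries were all below the controls, from 30 to 103 reads per control library and 39 to 64 per mutant-labelled library. On the log2 scale the fold change was -0.57 ± 0.169 (SE) (adjusted p = 0.27 in limma, exact permutation p = 0.0286), and the unadjusted call of limma held on leaving out each of the 8 libraries in turn. *Cdh19*, a cadherin of the Schwann cell lineage, measured 4.07, 2.66, 3.87 and 5.09 CPM in the controls and 5, 5.19, 5.17 and 5.6 CPM in the mutant-labelled libraries. Control replicate 4 overlapped the mutant-labelled range, and control replicate 2, with 28 reads, was lowest. As a log2 fold change this was 0.40 ± 0.167 (SE) (adjusted p = 0.389 in limma, exact permutation p = 0.0571). The unadjusted call ended without control replicate 2, where the fold change was 0.25, without control replicate 3 (0.41), without mutant-labelled replicate 3 (0.41) or 4 (0.37), after removal of the GC trend (0.26), and in the quasi-likelihood test and DESeq2. The remaining type II members, *Cdh6*, *Cdh7*, *Cdh8*, *Cdh10* and *Cdh24*, ran from 1.29 to 26.9 CPM in their mean over all libraries and had overlapping groups.

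Within a library, the ratio of *Cdh11* to *Cdh2* in CPM per kb was 0.453, 0.427, 0.523 and 0.462 in the controls (replicates 1 to 4) and 0.572, 0.765, 0.602 and 0.587 in the mutant-labelled replicates 1 to 4. All mutant-labelled ratios were above all control ratios, and replicate 2 of the mutant-labelled group was the highest. The mean ratio was 0.466 in the controls, 0.632 in the mutant-labelled group and 0.587 in that group without replicate 2. This ratio and that of *Pkp2* to *Dsg2* were chosen after the values were seen, and so carry no test. The summed level of the 12 classical cadherins did not separate the groups, at 185 ± 5.75 CPM per kb in the controls and 186 ± 6.3 in the mutant-labelled group (SD, n = 4 each). Of that sum, *Cdh2* made up 32.7 ± 1.91% in the controls and 29.5 ± 0.915% in the mutant-labelled libraries, and *Cdh11* 15.2 ± 1.04% and 18.6 ± 2.27%. *Cdh5* made up 23.9 ± 2.3% and 22.6 ± 2.12%, and *Cdh3* 21.4 ± 1.88% and 22.4 ± 1.63%.

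Beside these cadherins, the 10 genes of cushion and outflow mesenchyme summed to 5024, 4982, 5087 and 5292 CPM in the controls (replicates 1 to 4) and 4533, 5827, 5422 and 5368 CPM in the mutant-labelled replicates 1 to 4. Mutant-labelled replicate 2 was highest here too, and replicate 1 lowest. In limma 1 of the 10, *Pdgfrb*, was higher and 0 were lower at an unadjusted p under 0.05. Its levels were 139, 133, 157 and 148 CPM in the controls and 171, 153, 180.4 and 175 CPM in the mutant-labelled libraries. The 7 epicardial genes summed to 355, 395, 463 and 395 CPM in the controls and 339, 574, 404 and 401 CPM in the mutant-labelled libraries, with *Upk3b* the most abundant and mutant-labelled replicate 2 again highest. The part of these cells in the levels of *Cdh11* was not tested.

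Of the cadherins outside both classical types, *Cdh16* gave the largest difference of all 77 members. *Cdh16* (ENSMUSG00000031881, chr8:104601911-104624396 on the minus strand), the kidney-specific cadherin of tubular epithelium, measured 6.02, 6.45, 6.13 and 4.7 CPM in the controls and 2.94, 2.83, 3.64 and 2.97 CPM in the mutant-labelled libraries. The groups were clearly apart, with the lowest control at 4.70 CPM and the highest mutant-labelled library at 3.64 CPM, and these values rest on 63 to 167 reads. The log2 fold change was -0.81 ± 0.142 (SE), with an adjusted p of 0.124 in limma, 0.00193 in edgeR's likelihood ratio test and 9.49e-04 in DESeq2, and an exact permutation p of 0.0286. In the likelihood ratio test run without each library in turn, its adjusted p lay between 3.98e-04 and 0.046. *Cdh13*, T-cadherin, which is tethered to the membrane by a lipid anchor, measured 36.6, 44.1, 47.8 and 42 CPM in the controls and 28.9, 60.4, 45.3 and 43.2 CPM in the mutant-labelled libraries. The lowest and the highest library were both mutant-labelled, and the log2 fold change was 0.02 ± 0.174 (SE) (exact permutation p = 0.943).

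Among 9 non-clustered protocadherins, limma counted 2 as higher and 0 as lower at an unadjusted p under 0.05 (5.45% and 6.62% of all genes). The 2 were *Pcdh10* and *Pcdh18*, both of the delta-2 group whose tails bind the WAVE complex that drives actin branching. *Pcdh17* and *Pcdh19* belong to that group as well and were not called, with log2 fold changes of 0.02 and 0.27. *Pcdh10* measured 6.56, 8.35, 7.18 and 8.56 CPM in the controls and 10.1, 12.4, 11.7 and 9.86 CPM in the mutant-labelled libraries. The highest control, 8.56 CPM, lay below the lowest mutant-labelled library, 9.86 CPM. Its log2 fold change came to 0.50 ± 0.122 (SE) (adjusted p = 0.228 in limma, 0.0504 in edgeR's likelihood ratio test and 0.0277 in DESeq2, exact permutation p = 0.0286). *Pcdh18* measured 56.7, 60.9, 72 and 76.3 CPM in the controls and 79.7, 123, 89.1 and 81.9 CPM in the mutant-labelled libraries. Mutant-labelled replicate 2 was far above the rest, while control replicate 4 and mutant-labelled replicate 1 were close. The log2 fold change was 0.48 ± 0.136 (SE) (adjusted p = 0.258 in limma, 0.0663 in the likelihood ratio test and 0.0382 in DESeq2, exact permutation p = 0.0286), and it was 0.34 without mutant-labelled replicate 2. Both genes kept their unadjusted call in limma on leaving out each library in turn.

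*Pcdh7*, the most abundant of the non-clustered protocadherins, measured 136, 103, 93 and 100.2 CPM in the controls and 103, 98.9, 95.5 and 104 CPM in the mutant-labelled libraries. Control replicate 1 was high and the other libraries were alike, and the log2 fold change of -0.09 ± 0.102 (SE) turned to 0.02 without that control. The other members of this group had means from 2.4 to 36.2 CPM and log2 fold changes from -0.22 (*Pcdh12*, a protocadherin of endothelium) to 0.44 (*Pcdh11x*), all with overlapping groups. *Pcdh11x* depended on single libraries, with 0.24 to 0.54 when 1 was left out. It passed an unadjusted p of 0.05 in 3 of these 8 fits, those without replicate 1 of either group or replicate 4 of the mutant-labelled group, and *Pcdh12* did so without control replicate 4 (-0.34). *Pcdh1* and *Pcdh12* lie on chromosome 18. The 9 genes of the WAVE complex, the partner of the delta-2 tails, held 0 genes past an unadjusted p of 0.05 in either direction, with a median log2 fold change of 0.10. Their sum was 725 ± 31.5 CPM in the controls and 759 ± 20 CPM in the mutant-labelled group (SD, n = 4 each). The smallest p-values belonged to *Wasf1*, with a log2 fold change of 0.19 ± 0.0946 (SE), *Cyfip1*, with 0.17 ± 0.0841 (SE), and *Wasf2*, with -0.14 ± 0.0727 (SE). Without mutant-labelled replicate 2 these were 0.23, where *Wasf1* passed an unadjusted p of 0.05 in limma, 0.08 and -0.09.

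**Figure D3:**
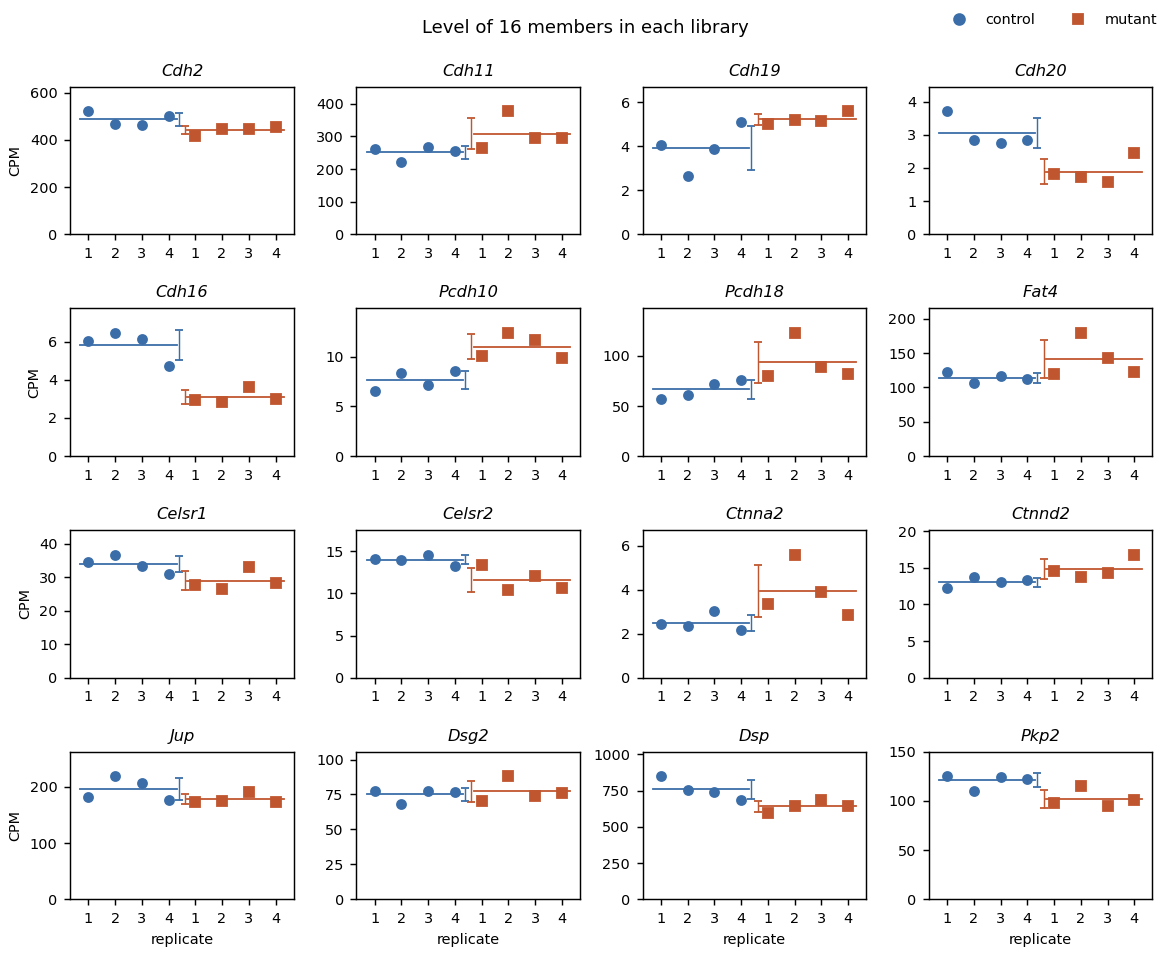
CPM of 16 members in each library (points; control replicates 1 to 4 left, mutant-labelled replicates 1 to 4 right), with the group mean as a line and the SD as an error bar; every axis starts at 0. *Cdh16*, *Cdh20*, *Dsp* and *Cdh2* are lower and *Pcdh10*, *Pcdh18* and *Ctnnd2* higher in all 4 mutant-labelled libraries, and mutant-labelled replicate 2 is highest for *Cdh11*, *Pcdh18*, *Fat4* and *Ctnna2*.

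The 35 clustered protocadherins stand in a tandem array on chromosome 18, where each alpha and gamma gene joins its own variable exon to constant exons shared along its cluster, and single cells pick few of them. Reads of the shared exons and of near-identical copies could be split among these genes by the counting, so each level is uncertain. With all libraries and no other adjustment, none of the 35 passed an unadjusted p of 0.05 in limma and none had groups that did not overlap. Of the 12 beta genes 11 had positive log2 fold changes, with a median of 0.14, and of the 22 gamma genes 7, with a median of -0.05, while 7359 of all 14608 genes had positive ones. With reads possibly shared the genes of a cluster are not independent, and neither a shared direction nor a contrast between the clusters was tested. Summed over the beta cluster, the level was 21.4, 20.4, 25.9 and 32.1 CPM in the controls (replicates 1 to 4) and 23.2, 35.1, 31 and 28.5 CPM in the mutant-labelled replicates 1 to 4. The groups overlapped, with control replicate 4 high and mutant-labelled replicate 1 low. Each beta gene was thinly read, from a mean of 1.2 CPM for *Pcdhb4* to 5.55 CPM for *Pcdhb22*, and the whole cluster took 215 reads in control replicate 2 and 954 in mutant-labelled replicates 2 and 3. When mutant-labelled replicate 1 was left out, *Pcdhb4*, *Pcdhb16*, *Pcdhb19*, *Pcdhb20* and *Pcdhb21* passed an unadjusted p of 0.05 in limma as higher, with log2 fold changes from 0.52 to 0.85. *Pcdhb16* and *Pcdhb20* also passed without control replicate 4 (0.55 and 0.65), and *Pcdhb20* with the replicate block (0.48).

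The gamma cluster summed to 403, 434, 405 and 411 CPM in the controls and 395, 331, 413 and 405 CPM in the mutant-labelled libraries, with mutant-labelled replicate 2 the lowest and a mean of 404 CPM in the other 3. *Pcdhgc3*, the most abundant clustered gene, measured 189, 194, 172 and 183 CPM in the controls and 167, 123, 173 and 176 CPM in the mutant-labelled libraries. Mutant-labelled replicate 2 was again the lowest, and the log2 fold change of -0.22 ± 0.105 (SE) was -0.10 without it (exact permutation p = 0.0857 with all libraries). *Pcdhgc4* ran from 14.2 to 33.4 CPM in the controls and from 18.5 to 35.9 CPM in the mutant-labelled libraries, a spread within each group that was wide beside that of *Pcdhgc3*. *Pcdhgc3* passed an unadjusted p of 0.05 in limma as lower without mutant-labelled replicate 3 (-0.26) or 4 (-0.27). *Pcdhga1* had a log2 fold change of 0.46 with all libraries, and of 0.27 to 0.62 when 1 was left out. It passed as higher without control replicate 1 (0.62) or 3 (0.55), without mutant-labelled replicate 1 (0.55) and after removal of the GC trend (0.49). Of the alpha cluster only *Pcdhac2* was listed, at 3.45 ± 0.345 and 4.48 ± 1.95 CPM (SD, n = 4 each). Mutant-labelled replicate 3 was its highest library, at 7.22 CPM. Its log2 fold change of 0.26 ran from 0.02 to 0.46 when 1 library was left out. *Pcdhac2* passed as higher without mutant-labelled replicate 2 (0.46).

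**Figure D4:**
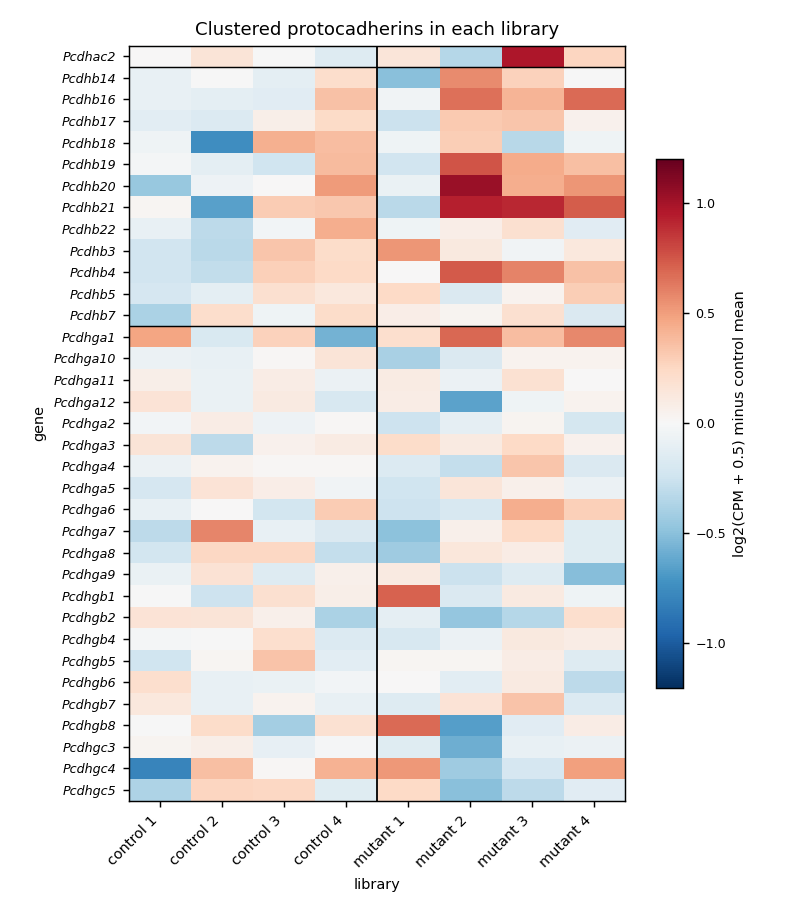
Level of each of the 35 clustered protocadherins in each library, as log2(CPM + 0.5) minus the mean of the 4 controls; horizontal lines part the alpha, beta and gamma clusters. The beta genes are mostly red in mutant-labelled replicates 2, 3 and 4 and in control replicate 4, and not in mutant-labelled replicate 1. Of the 22 gamma genes, 7 had positive and 15 negative log2 fold changes.

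The Fat and Dachsous proteins bind each other across cell borders and act on tissue growth through the Hippo pathway. Of their 5 members limma counted 1 as higher and 0 as lower at an unadjusted p under 0.05 (5.45% and 6.62% of all genes). *Fat4*, the receptor of *Dchs1*, measured 123, 106, 117 and 113 CPM in the controls and 119, 179.5, 143 and 122 CPM in the mutant-labelled libraries. Mutant-labelled replicate 2 stood highest and replicates 1 and 4 lay within the upper control range. Its fold change on the log2 scale was 0.28 ± 0.114 (SE) (adjusted p = 0.38 in limma, exact permutation p = 0.0857). It was 0.16 without mutant-labelled replicate 2, where the unadjusted call was lost, as it was without control replicate 2 (0.24) or 4 (0.28) or mutant-labelled replicate 3 (0.27). *Fat1*, the most abundant of the group in CPM, measured 341, 305, 305 and 308 CPM in the controls and 282, 366, 355 and 320.0 CPM in the mutant-labelled libraries, which held both the lowest and the highest value. *Dchs1* measured 170.3 ± 11.5 CPM in the controls and 166 ± 16.9 CPM in the mutant-labelled libraries, *Fat3* 28.8 ± 3.22 and 30 ± 1.5 CPM, and *Dchs2* 1.51 ± 0.493 and 2 ± 0.632 CPM (SD, n = 4 each).

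Of 15 partners of Fat, Dachsous and Hippo signalling, limma counted 2 as higher and 0 as lower at an unadjusted p under 0.05. *Lix1*, whose fly relative acts with Fat, measured 3.28, 2.28, 2.46 and 3.82 CPM in the controls and 9.52, 3.68, 4.23 and 3.77 CPM in the mutant-labelled libraries, where replicate 1 alone was far above the controls. In both called genes, *Lix1* and *Lats1*, the call depended on the library left out, and held in 5 and 2 of 8 fits. The kinase gene *Lats1* had a log2 fold change of 0.18 ± 0.0799 (SE) and *Tead4*, a DNA-binding partner of YAP, -0.22 ± 0.143 (SE), with overlapping groups for both. The list summed to 1415 ± 46.4 CPM in the controls and 1389.6 ± 58.2 CPM in the mutant-labelled libraries, with *Tead1* its most abundant gene and a median log2 fold change of -0.02.

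The Celsr proteins carry the polarity signal from cell to cell in an epithelial sheet, and both listed genes were lower at an unadjusted p under 0.05. *Celsr1* measured 34.6, 36.7, 33.3 and 30.9 CPM in the controls and 27.6, 26.6, 33.1 and 28.3 CPM in the mutant-labelled libraries, among which replicate 3 lay inside the control range. *Celsr2* measured 14.1, 14, 14.6 and 13.3 CPM in the controls and 13.4, 10.4, 12.1 and 10.7 CPM in the mutant-labelled libraries, among which replicate 1 lay just above the lowest control. The log2 fold changes were -0.23 ± 0.0884 (SE) and -0.26 ± 0.103 (SE) (adjusted p = 0.365 and 0.368 in limma, exact permutation p = 0.0571 for each). After removal of the GC trend they were -0.12 and -0.16 and neither passed. Without mutant-labelled replicate 2 they were -0.19 and -0.21 and both calls ended. The call of *Celsr1* also ended without control replicate 1 (-0.22) or 2 (-0.19) and without mutant-labelled replicate 1 (-0.21) or 4 (-0.22). That of *Celsr2* also ended without control replicate 3 (-0.24) or mutant-labelled replicate 4 (-0.23).

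The other 15 genes of planar cell polarity showed 1 higher and 1 lower at an unadjusted p under 0.05, a median log2 fold change of -0.05 and sums of 1075 ± 21.9 CPM in the controls and 1043 ± 70.1 CPM in the mutant-labelled group (SD, n = 4 each), with *Ptk7* the most abundant. *Ror2*, a receptor of WNT5A, measured 65.8, 70.6, 56.3 and 57.3 CPM in the controls and 57.1, 41.8, 52.4 and 55.2 CPM in the mutant-labelled libraries. The mutant-labelled replicate 2 was the lowest by far, and replicate 1 lay inside the control range. Its log2 fold change was -0.28 ± 0.107 (SE), and -0.18 without replicate 2, where its unadjusted call was lost. *Fzd6*, a Frizzled receptor of the polarity pathway, had a log2 fold change of 0.21 ± 0.0873 (SE), whose call was lost in the same way (0.16), and *Fzd3* of 0.19 ± 0.11 (SE).

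The abundant catenins of the adherens junction differed little between genotypes. *Ctnnb1*, which links cadherins to alpha-catenin and also carries the WNT signal, measured 995, 941, 977 and 965 CPM in the controls and 1009, 1024, 991 and 972 CPM in the mutant-labelled libraries. Its log2 fold change was 0.04 ± 0.0622 (SE), with a 95% confidence interval from -0.09 to 0.18 and an exact permutation p of 0.143. *Ctnna1* measured 480.2, 457, 445 and 479 CPM in the controls and 457, 438, 460.5 and 459 CPM in the mutant-labelled libraries, with an interval from -0.17 to 0.09. *Ctnnd1*, which keeps cadherins at the surface, measured 395 ± 26.5 and 387 ± 20.6 CPM (SD, n = 4 each). *Jup*, plakoglobin, which serves both adherens junctions and desmosomes, measured 182, 219, 207 and 177 CPM in the controls and 173, 175, 191 and 173 CPM in the mutant-labelled libraries. Mutant-labelled replicate 3 was above the other 3 of its group, and the groups overlapped (log2 fold change -0.14 ± 0.0773 (SE), exact permutation p = 0.171). The fold change was -0.03 after removal of the GC trend, -0.08 without control replicate 2, and -0.18 without control replicate 4, where it passed an unadjusted p of 0.05 in limma.

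*Ctnna2*, alpha-N-catenin of neural tissue, measured 2.45, 2.37, 3.03 and 2.16 CPM in the controls and 3.36, 5.59, 3.9 and 2.86 CPM in the mutant-labelled libraries. Control replicate 3 overlapped mutant-labelled replicate 4, and mutant-labelled replicate 2 was the highest. The log2 fold change was 0.53 ± 0.192 (SE) (adjusted p = 0.333 in limma, exact permutation p = 0.0571), and 0.37 without mutant-labelled replicate 2, where its unadjusted call was lost. *Ctnnd2*, the delta-catenin of neurons, measured 12.2, 13.7, 13 and 13.3 CPM in the controls and 14.6, 13.7, 14.3 and 16.8 CPM in the mutant-labelled libraries. The highest control and the lowest mutant-labelled library both round to 13.7 CPM, and under median-of-ratios scaling the groups overlapped. Its log2 fold change was 0.18 ± 0.0937 (SE), which passed an unadjusted p of 0.05 in limma only after removal of the GC trend (0.24) or without mutant-labelled replicate 2 (0.21). *Ctnna3*, alpha-T-catenin of heart muscle, measured 19.4 ± 2.83 CPM in the controls and 17.2 ± 1.86 CPM in the mutant-labelled libraries, with overlapping groups.

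Beside *Ctnna2*, *Ctnnd2* and *Cdh19*, 6 of 8 genes of neural crest derivatives, glia and neurons were listed, of which 2 were higher and 0 lower at an unadjusted p under 0.05 in limma. They summed to 51, 54.6, 49.3 and 58.4 CPM in the controls and 57.9, 57.8, 67.4 and 58.7 CPM in the mutant-labelled libraries, with *Tubb3* the most abundant. *Stmn2*, a neuronal tubulin-binding protein, measured 10.2, 12, 12.5 and 15.5 CPM in the controls and 15.9, 24.6, 18.6 and 17.3 CPM in the mutant-labelled libraries, and *Elavl4* 2.95, 2.66, 1.61 and 3.7 and 4.62, 4.16, 4.06 and 4.87 CPM. All mutant-labelled libraries were above all controls for both, and *Stmn2* passed the likelihood ratio test after adjustment (adjusted p = 0.0437, against 0.234 in limma). The other neuronal genes did not follow, with *Tubb3* at 27.8 ± 1.86 and 26.6 ± 5.8 CPM and *Elavl3* at 1.26 ± 0.498 and 1.24 ± 0.372 CPM (SD, n = 4 each). *Sox10*, the crest and glial factor, measured 1.91, 4.27, 2.42 and 2.77 CPM in the controls and 2.05, 1.1, 1.89 and 2.89 CPM in the mutant-labelled libraries and was lower in its mean, with overlap and a log2 fold change of -0.43, or -0.24 without mutant-labelled replicate 2. *Foxd3* and *Phox2a* were not analysed here. The part of neuronal RNA in the levels of these catenins was not tested.

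Of the 5 genes of the desmosome group, the plaque gene *Dsp* and the plakophilin *Pkp2* were lower at an unadjusted p under 0.05 in limma (6.62% of all genes were). Neither passed after adjustment with all libraries in any of the tools. *Dsp* (desmoplakin, the link to intermediate filaments) measured 849, 752, 744 and 689 CPM in the controls and 594, 645, 686 and 646 CPM in the mutant-labelled libraries. All mutant-labelled libraries lay below all controls, with 689 CPM the lowest control and 686 CPM the highest mutant-labelled value. *Pkp2* (plakophilin 2, which binds desmoplakin to the desmosomal cadherins) measured 125, 110.4, 124 and 122 CPM in the controls and 98.2, 115, 95 and 101 CPM in the mutant-labelled libraries. Here mutant-labelled replicate 2 lay inside the control range and the other 3 below it. The log2 fold changes were -0.24 ± 0.0782 (SE) and -0.24 ± 0.0747 (SE) (adjusted p = 0.31 and 0.291 in limma, exact permutation p = 0.0286 and 0.0571), and both kept their unadjusted call without each of the 8 libraries. *Dsg2*, desmoglein 2, measured 77.3, 68.5, 77.3 and 77.1 CPM in the controls and 70.5, 88, 73.8 and 76.4 CPM in the mutant-labelled libraries. *Dsc2*, desmocollin 2, measured 39.2, 26.6, 34.5 and 33 CPM in the controls and 33.7, 33.9, 29.9 and 30 CPM in the mutant-labelled libraries. Neither passed, and both overlapped (exact permutation p = 0.771 and 0.657), and both lie on chromosome 18 within 9.47 Mb of *Gata6*.

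*Pkp4*, a plakophilin relative that is also found at adherens junctions, measured 123 ± 2.81 CPM in the controls and 120.0 ± 7.26 CPM in the mutant-labelled libraries. The ratio of *Pkp2* to *Dsg2* in CPM per kb was 2.5, 2.49, 2.47 and 2.45 in the controls (replicates 1 to 4) and 2.15, 2.01, 1.99 and 2.05 in the mutant-labelled replicates 1 to 4. It stood at 2.48 ± 0.023 and 2.05 ± 0.0704 (SD, n = 4 each), and all mutant-labelled values were below all controls. Because this pair was chosen after the values were seen, neither the small spread nor the separation is a test. In control replicate 2 the ratio rests on 1164 reads of *Pkp2* and 722 of *Dsg2*, and the spread that counting alone would give was not computed. Since *Pkp2* and *Dsg2* come from the same library, the ratio does not depend on how the library was scaled.

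Cardiomyocytes hold desmosomes and N-cadherin, and their markers were lower beside these genes. Of the 13 cardiomyocyte genes, 12 were lower and 0 higher at an unadjusted p under 0.05 in limma (6.62% and 5.45% of all genes). In 10 all mutant-labelled libraries lay below all controls (3.9% of all genes did). The likelihood ratio test of edgeR passed 7 as lower after adjustment (0.554% of all genes), none passing in limma. The 13 summed to 27049, 26172, 26446 and 23305 CPM in the controls (replicates 1 to 4) and 19840.4, 18441, 19730.2 and 21667 CPM in the mutant-labelled replicates 1 to 4. Every mutant-labelled sum was below every control sum, and the median log2 fold change was -0.35, against -0.24 for *Dsp*, -0.24 for *Pkp2* and -0.14 for *Cdh2*. *Myh7*, the most abundant, measured 10879.5, 10710.1, 10401 and 9458 CPM in the controls and 7635, 7230.0, 8041 and 8753 CPM in the mutant-labelled libraries. *Myl2*, a ventricular light chain, measured 2153, 1915, 2393 and 1789 and 1548, 1297, 1253 and 1482 CPM in the same order. *Nppa* had the lowest log2 fold change of the 13, at -2.09, with overlapping groups. It measured 157, 99.1, 122 and 65.9 CPM in the controls and 61.9, 5.67, 8.68 and 109 CPM in the mutant-labelled libraries. A difference in dissection between libraries was not tested. The part of cardiomyocyte RNA in the levels of *Dsp*, *Pkp2* and *Cdh2* was not tested either.

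**Figure D5:**
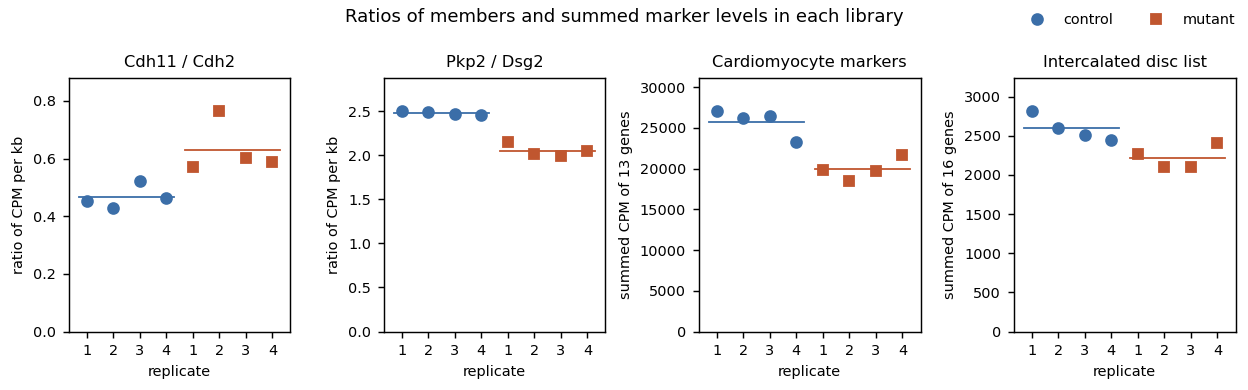
From left to right, the ratio of *Cdh11* to *Cdh2* and of *Pkp2* to *Dsg2* in CPM per kb, and the summed CPM of 13 cardiomyocyte markers and of 16 genes of the intercalated disc, in each library; lines mark group means and axes start at 0. The groups do not overlap in any of the 4 panels, the *Cdh11* to *Cdh2* ratio being the only one that is higher in the mutant-labelled libraries. Both ratios were chosen after the values were seen.

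Of 16 listed genes of the intercalated disc outside the family, 8 were lower and 0 higher at an unadjusted p under 0.05 in limma (6.62% of all genes were lower). In 4 all mutant-labelled libraries lay below all controls (3.9% of all genes did). The likelihood ratio test of edgeR passed 2 as lower after adjustment, *Tln2* and *Nrap* (0.554% of all genes). *Tln2* (talin 2, the link from integrins to actin) measured 149, 149, 134 and 119 CPM in the controls and 105, 101, 105 and 105 CPM in the mutant-labelled libraries. *Nrap*, an actin-binding protein of the disc, measured 56.7, 49.1, 55.3 and 43.4 CPM in the controls and 33.4, 40.5, 35.3 and 36.4 CPM in the mutant-labelled libraries. In both, all mutant-labelled libraries were below all controls. *Xirp1*, another actin-binding protein of the disc, measured 236, 239.5, 209 and 198 CPM in the controls and 172, 164, 171 and 198 CPM in the mutant-labelled libraries, where replicate 4 met the lowest control. The log2 fold changes of the 3 were -0.40 ± 0.077 (SE), -0.48 ± 0.0959 (SE) and -0.32 ± 0.0821 (SE). The list summed to 2816, 2605, 2509 and 2450.0 CPM in the controls and 2267, 2103, 2100.3 and 2407 CPM in the mutant-labelled libraries, with *Des* the most abundant. *Xirp2* was not analysed here. The disc genes and the cardiomyocyte markers mark overlapping cells, and no test separated them.

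Of 19 listed partners of the adherens junction, 5 were lower and 0 higher at an unadjusted p under 0.05 in limma (6.62% and 5.45% of all genes). In 4 all mutant-labelled libraries lay below all controls (3.9% of all genes did). *Plekha7*, which binds p120-catenin and tethers microtubules to the junction, measured 87.5, 71, 76.6 and 65.7 CPM in the controls and 63.3, 43.1, 51.5 and 61.7 CPM in the mutant-labelled libraries. *Lmo7*, a junction protein that binds afadin and alpha-actinin, measured 205, 184, 190.5 and 187 and 159, 171, 159 and 169.8 CPM in the same order, and the adhesion receptor gene *Nectin2* 103, 111, 106 and 94 and 93.5, 79.7, 93.9 and 93 CPM. In each of the 3 all mutant-labelled libraries were below all controls, with log2 fold changes of -0.46 ± 0.123 (SE), -0.22 ± 0.0617 (SE) and -0.20 ± 0.0766 (SE) and adjusted p-values in limma of 0.242, 0.258 and 0.359. The fold change of *Nectin2* was -0.11 after removal of the GC trend. *Arvcf* and *Shroom3*, also counted as lower, each kept the call in 4 of 8 fits without a library. *Shroom3* had overlapping groups and lost its call without mutant-labelled replicate 2 (-0.13). The fold change of *Arvcf* was -0.18, and -0.08 after removal of the GC trend. The list as a whole moved little, with a median log2 fold change of -0.05 and sums of 2708 ± 101 CPM in the controls and 2620.4 ± 52.6 CPM in the mutant-labelled group (SD, n = 4 each), *Actn4* being the most abundant. *Nectin4* was not analysed here.

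Upstream and downstream lists held few differences. Of 12 repressors and sheddases of cadherins, 1 was lower and 0 higher at an unadjusted p under 0.05 in limma. That gene, *Ncstn* (nicastrin, a subunit of the gamma-secretase that cleaves N-cadherin and NOTCH), measured 156, 154, 156 and 151 CPM in the controls and 131, 138, 148 and 141 CPM in the mutant-labelled libraries, all of them below the controls. Its call held in 3 of 8 fits without a library. The repressor genes *Zeb2* and *Snai2*, which shut down cadherin genes when cells leave an epithelium, had log2 fold changes of 0.18 ± 0.0896 (SE) and 0.18 ± 0.111 (SE), with overlapping groups. The list summed to 1072 ± 38.4 CPM and 1088 ± 36.9 CPM in controls and mutant-labelled libraries, with *Adam10* the most abundant. Of 11 listed target genes of beta-catenin, 0 passed in either direction, and the largest differences by p were those of *Apcdd1* (0.19 ± 0.0943 (SE)), *Nkd1* (0.12 ± 0.125 (SE)) and *Rnf43* (0.23 ± 0.238 (SE)). They summed to 374 ± 21.3 CPM and 370.1 ± 41 CPM, with *Ccnd1* the most abundant, and *Sp5* was not analysed here.

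Other cell types were set beside the family by their markers. The 11 endothelial genes, the context of *Cdh5* and *Pcdh12*, summed to 999, 917, 909 and 841 CPM in the controls and 859, 891, 875 and 924 CPM in the mutant-labelled libraries, with 2 lower, *Emcn* and *Plvap*, and 0 higher at an unadjusted p under 0.05. Without mutant-labelled replicate 2 the log2 fold change of *Plvap* was -0.26 and its call was lost. The 6 smooth muscle genes summed to 2621 ± 207 and 2593 ± 220.1 CPM, with *Myh11* higher and *Myocd* and *Smtn* lower, the call of *Smtn* being lost without that library (-0.14). Of 7 genes of the second heart field and pharyngeal mesoderm, 6 were listed, with 3 higher and 0 lower, and *Isl1* measured 25.7, 26.8, 33 and 31.1 CPM in the controls and 59.2, 40.7, 43.4 and 41.4 CPM in the mutant-labelled libraries. *Isl1* was the 1 gene of this list past the likelihood ratio test after adjustment (adjusted p = 0.00142, against 0.142 in limma). The calls of *Tbx1* and *Tlx1*, at means of 3.81 and 4.22 CPM in the mutant-labelled libraries, each held in 3 of 8 fits without a library. *Tbx1* had overlapping groups and lost its call without mutant-labelled replicate 2 (0.57). This list summed to 376 ± 29.9 and 384 ± 33.5 CPM, with *Hand2* the most abundant, and *Fgf8* was not analysed here. The epicardial list held 1 lower gene, *Msln*, and 0 higher. *Krt8* and *Krt18*, the listed epithelial genes, summed to 77 ± 9.23 and 78.9 ± 4.24 CPM. The 7 erythroid genes ran from 1087 to 4151 CPM in the mutant-labelled libraries, where replicates 1 and 2 were high, and from 1287 to 2535 CPM in the controls, with *Hbb-y* the most abundant. The 8 macrophage genes summed to 57.3 ± 6.72 and 58.7 ± 15.1 CPM, with *Csf1r* the most abundant, and the epithelial, erythroid and macrophage lists held no gene past an unadjusted p of 0.05.

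By position, 41 of the 77 members lie on chromosome 18, which also holds *Mib1* and *Gata6*, and 36 on other chromosomes. Of the 41, 0 were higher and 1 was lower (*Cdh2*) at an unadjusted p under 0.05 in limma, and the median log2 fold change was -0.01. Of the 36, 6 were higher and 6 lower (16.7% each), with a median of 0.05. All 402 listed genes of chromosome 18 had 29 higher (7.21%) and 18 lower (4.48%) and a median of 0.04, and the listed genes of other chromosomes had 5.4% higher and 6.68% lower. No test compared the positions. Most of the 41 are clustered protocadherins at 26.1 Mb or more from *Gata6*, and their counts are uncertain. The nearest members, *Cdh2*, *Dsc2* and *Dsg2*, lie 5.5, 8.94 and 9.47 Mb from *Gata6*, and their log2 fold changes were -0.14, -0.05 and 0.04.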

How the data were processed

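RNA from 4 control and 4 mutant-labelled pools of OFT was extracted with PicoPure, selected for polyadenylated molecules, made into stranded libraries with NEBNext Ultra II Directional and read at one end on a NextSeq 2000. The authors gave values in CPM after trimming with cutadapt, counting with RSEM on the Ensembl annotation of GRCm38, removal of genes that reached 1 CPM in fewer than 3 libraries and TMM scaling in edgeR. Neither the use of the read strand in counting nor the handling of reads with several matches was stated in full, and the size and number of pools differ between the labels and the study's methods.

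Whole reads were recovered from the steps of the CPM values (100% of values within 0.01 of a whole number). limma 3.58.1 (a linear model with a trended variance) was run in R 4.3.3 on log2(CPM + 0.5) over all 14608 genes, with Benjamini-Hochberg adjustment, two-sided, and single members were also given a two-sided exact permutation p over 70 relabellings. The fit was checked on simulated data. Called members, without adjustment, are those past p 0.05. Alternatives were a pseudocount of 0.25 or 2, a mean of at least 5 CPM, the replicate block, median-of-ratios scaling, both tests of edgeR 4.0.16, DESeq2 1.42.0 and leaving out each library, and, chosen after seeing the data, removal of the GC trend, that removal with the block, the likelihood ratio test without each library, and the named list genes without mutant-labelled replicate 2. Tables and plots used Python 3.11.15, pandas 2.3.3, numpy 2.4.6 and matplotlib 3.10.9. Lengths and positions came from GENCODE M21, and promoters from RefSeq.

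The rule for members, which uses symbols alone, and the lists were chosen with earlier results of these data known. Members were named with all their values if they passed an unadjusted p of 0.05 in limma, had groups that did not overlap or were the most abundant of their role, beside *Cdh1*, *Cdh2*, *Cdh5*, *Cdh11*, *Ctnnb1*, *Ctnna1*, *Jup*, *Dsp*, *Dsg2*, *Dsc2* and *Pkp2*. Of each partner list up to 3 genes with the smallest unadjusted p were named, and *Arvcf* and *Shroom3* were added after their values were seen. Other members and all marker genes given singly were chosen after their values were seen. The partner lists were adherens junction partners, intercalated disc, planar cell polarity, Fat-Dachsous and Hippo partners, WAVE complex, repressors and sheddases, and beta-catenin targets. The marker lists were cardiomyocytes, endocardium and endothelium, cushion and outflow mesenchyme, smooth muscle, epicardium, second heart field, neural crest and neurons, epithelium, erythroid cells and macrophages. Some genes of these lists are not reported here and were left out of their counts and sums.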

Additional observations from a re-analysis of the deposited data

Results flagged for a closer look

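Of 48 groups of 4 libraries, 2 for each of 24 named members, 7 held a library far from the other 3, and chance gives about 1 in 20. In the controls, *Cdh20* in replicate 1 (3.71 CPM, the others at 2.74 to 2.85) and *Fat1* in replicate 1 (341 CPM, the others at 305 to 308) were high, and *Dsg2* in replicate 2 (68.5 CPM, the others at 77.1 to 77.3) was low. In the mutant-labelled libraries, *Jup* in replicate 3 (191 CPM, the others at 173 to 175) and *Cdh16* in replicate 3 (3.64 CPM, the others at 2.83 to 2.97) were high. *Ctnna1* in replicate 2 (438 CPM, the others at 457 to 460.5) and *Pcdhgc3* in replicate 2 (123 CPM, the others at 167 to 176) were low, and this is the library that stood apart over all genes.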

How the results depend on the processing

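In limma, 0 genes and 0 members passed an adjusted p of 0.05 under every alternative fitted with it, while the likelihood ratio test of edgeR passed 107 genes and 1 member, DESeq2 194 genes and 3 members, and the quasi-likelihood test 0 genes. DESeq2 gave no adjusted p for 1987 genes. At an unadjusted p under 0.05, members counted as higher ranged from 3 to 13 and as lower from 5 to 8 when single libraries were left out, against 6 and 7 with all. In those fits 3.08% to 7.31% and 4.59% to 7.5% of all genes were called. With the GC trend removed and the block together, 4 members were lower (5.79% of all genes). With 3 libraries against 4, 8 to 14 members had groups that did not overlap, where 8.84% to 14.6% of all genes did, and the count was 12 without control replicate 4 or mutant replicate 3 and 14 without mutant replicate 1. The median log2 fold change of members was -0.0383 among the 51 with a mean of at least 5 CPM, a filter that dropped *Cdh16*, *Cdh20*, *Ctnna2* and *Cdh19*, and it ran from -0.0201 to 0.0513 without single libraries. With the replicate block limma counted 7 members as higher and 6 as lower (3.83% and 5.1% of all genes), and 0 passed after adjustment. Replicate numbers gave no sign of pairing, with correlations between like numbers of 0.0116, -0.271, 0.0499 and -0.0061. Those between unlike numbers ran from -0.302 to 0.378, so these values cannot show that the libraries were unpaired.

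Over 428 comparisons of the 24 named members with alternatives, 378 kept direction and side of the threshold, 35 lost and 6 gained a call, and 9 turned direction. The turns were *Dsc2* to 0.0301 and *Pcdh7* to 0.0233 without control replicate 1, *Dsg2* to -0.0053 without control replicate 2 and -0.0267 without mutant replicate 2, and *Cdh13* to -0.0346 with the GC trend removed, with or without the block, and to -0.052, -0.1433 and -0.0063 without control replicate 1, mutant replicate 2 and mutant replicate 3. Without single libraries the 4 ran from -0.1539 to 0.0301, from -0.1592 to 0.0233, from -0.0267 to 0.0792 and from -0.1433 to 0.2075 in this order, and none passed a test with all libraries. In the likelihood ratio test *Cdh16* passed without each of the 8 libraries, *Pcdh10* and *Pcdh18* also without control replicate 4 and mutant replicates 1 and 4, and *Pkp2* without mutant replicate 2, while the genes passing ranged from 24 to 209. The causes were not tested. Depth limits the members under 5 CPM, whose reads per library fell to 4 for *Pcdhb21*, and control replicate 2 most of all.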

Other observations

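Some members varied between pools of the same label more than between labels. *Pcdhgc4*, a gamma protocadherin of neurons, measured 14.2, 32.3, 25.2 and 33.4 CPM in the controls (replicates 1 to 4) and 35.9, 18.5, 21.6 and 35.3 CPM in the mutant-labelled replicates 1 to 4. Its coefficient of variation was 33.7% in the controls and 32.5% in the mutant-labelled libraries, and both groups held both low and high libraries. *Cdh7*, a type II cadherin of neural crest, measured 0.648, 0.664, 1.82 and 1.7 CPM in the controls and 1.07, 1.99, 1.3 and 1.1 CPM in the mutant-labelled libraries, so that control replicates 1 and 2 were far below control replicates 3 and 4. Its coefficient of variation was 52.8% and 31.2% in the same order.

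The library that stood apart, mutant-labelled replicate 2, was the highest of the 8 for several low-abundance members. *Cdh8* measured 4.14, 3.51, 2.34 and 2.97 CPM in the controls and 3.31, 5.45, 4 and 2.51 CPM in the mutant-labelled libraries, and *Cdh10* 7.02, 7.4, 7.42 and 6.98 and 7.14, 10.3, 8.52 and 6.82 CPM. *Pcdh9*, a delta protocadherin of neural tissue, measured 2.88, 4.17, 5.04 and 4.39 and 3.5, 7.14, 5.1 and 3.77 CPM, and *Pcdh11x* 7.35, 3.79, 6.53 and 6.9 and 6.49, 11.5, 9.13 and 6.78 CPM. Each of these 4 was highest in that library, and the groups overlapped. The same library was the lowest for *Cdh24*, with 24.1, 28.1, 29.4 and 26.8 CPM in the controls and 31.5, 20.2, 28.2 and 26.9 CPM in the mutant-labelled libraries, and for *Pcdh1*, with 40.7, 43.3, 35.5 and 34.9 and 38.9, 24.6, 36.5 and 34.8 CPM.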
